A study of Mus musculus with 12 samples.

Results

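Chemokine ligands are small secreted or membrane-bound proteins that steer immune cells, and 10 of them, of the CC and CXC types, are described here: Ccl2, Ccl3, Ccl4, Ccl5, Ccl7, Ccl8, Ccl12, Cxcl9, Cxcl10 and Cxcl16. They were chosen by name, each represented by its probe set with the highest mean over the 12 arrays. They are 10 of 18193 genes that have a probe set with 1 gene symbol, and all 10 are among the 9120 genes kept by the filter, a log2 value above 5 in at least 3 arrays.

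The study measured hippocampal CD11b+ cells of female mice, isolated by flow cytometry, on 12 Affymetrix arrays with 1 mouse per array. CD11b is an integrin carried by microglia, the resident macrophages of the brain, and by other myeloid cells. The groups compared were 4, of 3 mice each: Balb/c mice given 10 Gy of X-rays once, Balb/c sham mice, C57BL/6 mice given 10 Gy, and C57BL/6 sham mice. All were treated at 6.5 weeks of age and examined 1 month later, at 10.5 weeks. The irradiated field was a circle of 1 cm over the forebrain, with the eyes, nose and cerebellum shielded. Both strains came from the Jackson Laboratory, and the labels name no transgene or mutation. Each array held RNA from 5000 to 10000 cells that went through 2 rounds of linear amplification. The number of arrays limits the precision.

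In the brain, microglia, astrocytes, endothelial cells and macrophages of the brain's borders can all release chemokines. The ligands bind G protein-coupled receptors on other cells, so that a cell following a rising concentration moves toward the source. CCR2 draws monocytes, CCR1 draws monocytes and T cells, and CXCR3 draws activated T and NK cells. Cxcl9 is a classical interferon-gamma target, Cxcl10 responds to interferons of both types, and many CC ligands are induced through NF-kB.

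Of the members, 8 lie on chromosome 11 and 2 on chromosome 5, by the RefSeq annotation of the mouse build GRCm38.p6. Ccl2, Ccl7, Ccl11, Ccl12, Ccl8 and Ccl1 stand side by side in that order. A second run holds Ccl5, Ccl9, Ccl6, Ccl3 and Ccl4, and Cxcl9 and Cxcl10 are parted only by Art3. Cxcl16 lies by itself between Med11 and Zmynd15.

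The promoter windows of Cxcl10, Cxcl9, Ccl12 and Ccl8, each called after irradiation in at least 1 strain, are shown to compare these neighbouring pairs. Each window runs from 250 bases before to 50 bases after the annotated start, 5′ to 3′ on the gene's strand, from RefSeq on GRCm38.p6. The motifs searched were 5, on both strands, with their matches in capitals: NF-kB (GGGANTTCC), ISRE, the interferon-stimulated response element (GAAA, any 2 bases, GAAA), GAS, the interferon-gamma activated site (TTCNNNGAA), AP-1 (TGANTCA) and the TATA letters (TATAAA). The lines are Cxcl10 (chr5:92348840-92349139, minus strand), Cxcl9 (chr5:92328030-92328329, minus strand), Ccl12 (chr11:82101595-82101894, plus strand) and Ccl8 (chr11:82114935-82115234, plus strand).
Cxcl10: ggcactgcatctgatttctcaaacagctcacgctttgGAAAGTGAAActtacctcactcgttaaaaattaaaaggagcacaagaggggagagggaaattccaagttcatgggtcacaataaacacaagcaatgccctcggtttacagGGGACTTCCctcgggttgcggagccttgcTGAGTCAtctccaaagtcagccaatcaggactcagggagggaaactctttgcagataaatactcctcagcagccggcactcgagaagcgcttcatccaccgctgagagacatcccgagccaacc
Cxcl9: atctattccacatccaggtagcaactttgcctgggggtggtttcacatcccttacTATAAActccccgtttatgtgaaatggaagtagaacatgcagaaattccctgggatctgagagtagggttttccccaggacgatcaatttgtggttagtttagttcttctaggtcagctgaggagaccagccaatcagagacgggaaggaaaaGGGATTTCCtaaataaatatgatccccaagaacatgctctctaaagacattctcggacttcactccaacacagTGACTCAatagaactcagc
Ccl12: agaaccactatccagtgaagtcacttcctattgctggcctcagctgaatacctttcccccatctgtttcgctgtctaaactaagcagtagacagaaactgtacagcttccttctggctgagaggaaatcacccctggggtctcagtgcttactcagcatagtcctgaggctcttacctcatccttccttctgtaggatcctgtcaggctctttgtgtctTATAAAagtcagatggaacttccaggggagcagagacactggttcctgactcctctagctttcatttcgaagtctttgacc
Ccl8: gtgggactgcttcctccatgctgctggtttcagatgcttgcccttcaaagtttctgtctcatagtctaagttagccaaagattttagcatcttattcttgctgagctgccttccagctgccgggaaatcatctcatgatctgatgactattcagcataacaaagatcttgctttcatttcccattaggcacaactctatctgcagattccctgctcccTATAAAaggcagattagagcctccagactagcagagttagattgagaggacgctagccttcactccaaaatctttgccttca

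Among the sequences shown, the Cxcl10 window alone held the ISRE letters (GAAAGTGAAA, 213 bases before the start). It also held the NF-kB letters (GGGACTTCC) 103 bases before the start and the AP-1 letters 74 bases before it. The Cxcl9 window held the NF-kB letters (GGGATTTCC) 42 bases before the start, TATA letters 195 bases before it and AP-1 letters at base 32 after it. The Ccl12 and Ccl8 windows, of neighbouring genes, held the TATA letters 31 and 32 bases before their starts and none of the others. Ccl3, the remaining member with a window, had no match of any of the motifs, and GAS matched in none of the 5 windows. Of 32851 windows of the same length, 1.68% held the NF-kB letters, 3.44% the ISRE, 8.30% the GAS, 7.81% the AP-1 and 13.6% the TATA letters. A match describes letters only. The windows are those of the reference strain, and Balb/c sequence was not compared.

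**Figure D1:**
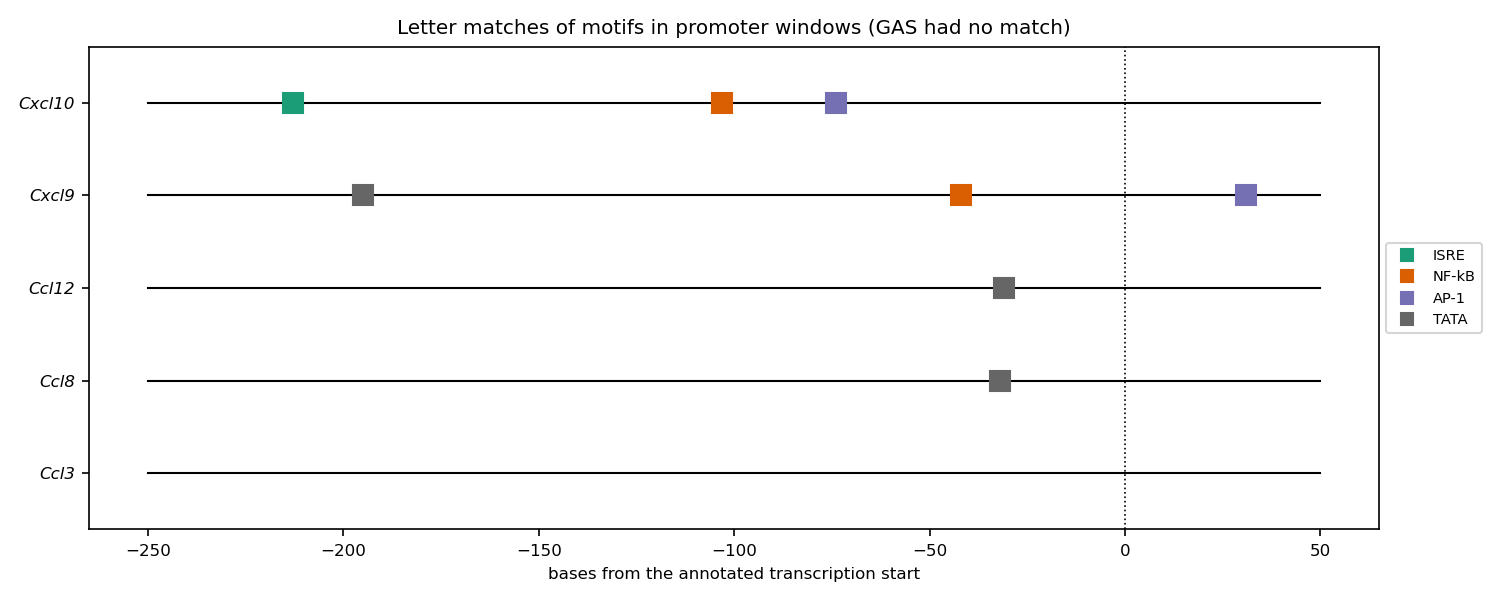
Positions of motif letter matches (squares, coloured by motif) in 5 promoter windows, with bases from the annotated start on the x axis and 1 row per gene. Cxcl10 carries ISRE, NF-kB and AP-1 letters, whereas Ccl12 and Ccl8 carry only TATA letters at 31 and 32 bases before the start.

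The sorted cells expressed P2ry12, a purine receptor that defines microglia, at log2 values of 13.76 to 14.32 (median 14.04) over all 12 arrays. The values are GCRMA log2 values as the authors deposited them, and all arrays have the same distribution, so a value is relative to the rest of its array. The smallest value on any array is 2.23, and values under 5 are treated as dim. Differences were tested with limma across all 9120 genes, a call needs a Benjamini-Hochberg adjusted p under 0.05, and the adjusted p-values below all come from that test. Errors of differences are standard errors and errors of group means are SDs with n = 3. In these sorted bulk samples, fewer cells of a type and less RNA per cell cannot be told apart.

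Of the ligands of CCR2, Ccl12, a monocyte attractant found in mice but not in humans, rose in both strains. Ccl2 and Ccl7 did not pass the test in either, and no difference between one ligand and another was tested. Ccl12 had log2 values of 12.96, 12.81 and 12.63 in Balb/c irradiated arrays, against 10.23, 10.79 and 10.87 in Balb/c sham arrays. In C57BL/6 the values were 12.80, 12.80 and 12.99 in irradiated arrays, against 12.17, 11.68 and 11.90 in sham arrays. Every irradiated array lay above every sham array of either strain, and the irradiated arrays of both strains lay in the same range. Balb/c sham arrays were the lowest of all and lay apart from the C57BL/6 sham arrays. The rise was 2.17 ± 0.18 on the log2 scale in Balb/c (4.49-fold, adjusted p = 1.82e-04). In C57BL/6 it was 0.94 ± 0.18 (1.92-fold, adjusted p = 0.0235). The C57BL/6 call was lost without sham replicate 2 (adjusted p = 0.0699), sham replicate 3 (0.0540), irradiated replicate 1 (0.0501) or irradiated replicate 3 (0.0926) of C57BL/6, with the difference between 0.83 and 1.07 over all 12 such fits.

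Ccl2, the most studied attractant of CCR2+ monocytes, had values of 9.74, 9.21 and 9.08 in Balb/c irradiated arrays and 8.20, 8.66 and 8.91 in Balb/c sham arrays. Its C57BL/6 values were 11.19, 10.06 and 10.14 in irradiated arrays and 9.97, 9.06 and 10.07 in sham arrays. The Balb/c groups did not overlap, and the C57BL/6 groups did, narrowly. The differences were nearly the same in both strains, 0.75 ± 0.35 in Balb/c (adjusted p = 0.238) and 0.77 ± 0.35 in C57BL/6 (adjusted p = 0.241). The 95% interval was -0.03 to 1.53 in Balb/c and -0.02 to 1.55 in C57BL/6, so neither shows that Ccl2 stayed the same.

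Ccl7, which binds CCR2 and is the neighbour of Ccl2, had values of 8.81, 8.37 and 8.70 in Balb/c irradiated arrays against 7.96, 8.17 and 8.73 in sham arrays. Its values in C57BL/6 were 9.79, 9.01 and 9.43 in irradiated arrays against 8.62, 8.18 and 9.76 in sham arrays. The groups overlapped in both strains. The difference was 0.34 ± 0.37 in Balb/c (adjusted p = 0.634) and 0.56 ± 0.37 in C57BL/6 (adjusted p = 0.399).

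Ccl8, which in mice acts on CCR8, rose in Balb/c. Its values were 8.62, 7.69 and 8.68 in Balb/c irradiated arrays, against 4.74, 3.96 and 5.31 in Balb/c sham arrays. C57BL/6 arrays had 7.19, 6.84 and 7.68 after irradiation, against 6.15, 5.05 and 6.42 after sham treatment. The groups did not overlap in either strain. All 3 Balb/c irradiated arrays lay above all others, but barely, with the lowest at 7.685 and the highest C57BL/6 irradiated array at 7.683. The difference was 3.66 ± 0.44 in Balb/c (adjusted p = 0.00176) and 1.36 ± 0.44 in C57BL/6 (adjusted p = 0.112), where the 95% interval ran from 0.40 to 2.33. The Balb/c call was kept in each of the 12 fits that left out 1 array. Of the 3 Balb/c sham values 2 are under 5, and with values below 4 set to 4 the difference was 3.64.

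**Figure D2:**
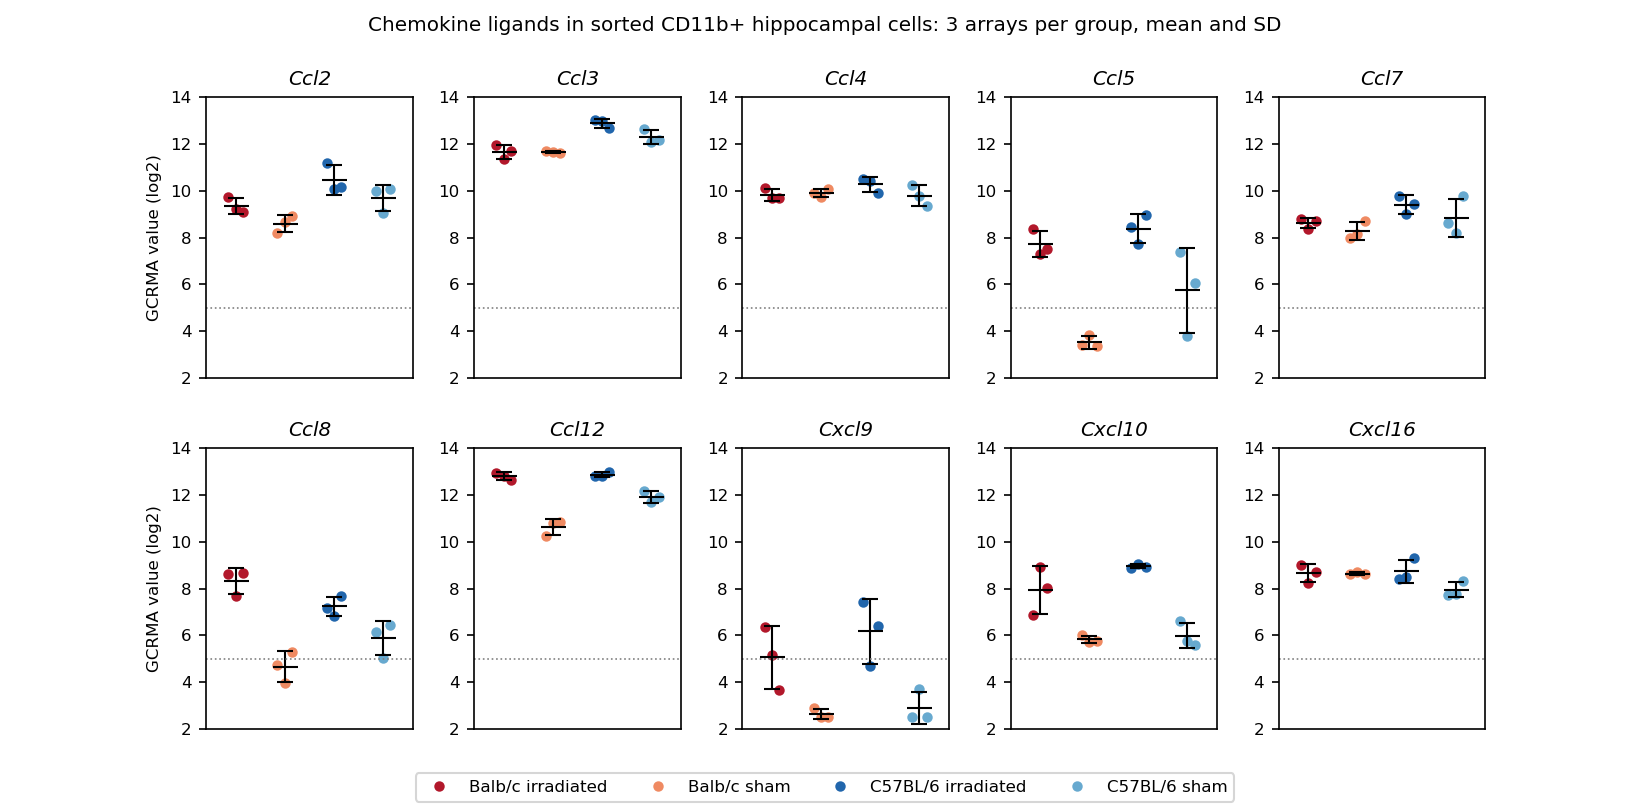
GCRMA log2 values (y axis) of the 10 ligands, 1 panel per gene, in Balb/c irradiated, Balb/c sham, C57BL/6 irradiated and C57BL/6 sham arrays. Points are single arrays (n = 3 per group), bars the mean and SD, and the dotted line the filter level of 5. Ccl8 reaches 7.685 to 8.68 in Balb/c irradiated arrays, barely above the highest other array at 7.683, and Ccl5 is at 3.35 to 3.84 in Balb/c sham arrays.

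Ccl5 (RANTES), which attracts T cells and monocytes, rose in Balb/c. Ccl3 and Ccl4, the macrophage inflammatory proteins, did not pass the test in either strain. Ccl5 had values of 8.36, 7.31 and 7.49 in Balb/c irradiated arrays, against 3.39, 3.84 and 3.35 in Balb/c sham arrays. C57BL/6 values were 8.45, 7.74 and 8.96 in irradiated arrays, against 7.39, 3.79 and 6.05 in sham arrays. Balb/c sham arrays were all dim, and the C57BL/6 sham arrays spread more widely (SD 1.82) than any other group. Among sham arrays only C57BL/6 replicates 1 and 3 exceeded 5, fewer than the 3 arrays the filter needs. Ccl5 thus passed the filter only through the irradiated groups, in which it is high, and its test lends no support beyond the values themselves. The groups did not overlap in either strain.

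For Ccl5 the difference was 4.19 ± 0.71 in Balb/c (adjusted p = 0.00862) and 2.64 ± 0.71 in C57BL/6 (adjusted p = 0.0691, 95% interval 1.06 to 4.22). With values below 4 set to 4 the Balb/c difference was 3.72, so its size depends on how dim values are treated. Without C57BL/6 sham replicate 1, the highest of that group, the C57BL/6 difference was 3.46 and passed the test (adjusted p = 0.0249). Without C57BL/6 sham replicate 2, the lowest of that group, it was 1.66.

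Ccl3 had values of 11.96, 11.37 and 11.70 in Balb/c irradiated arrays and 11.71, 11.64 and 11.64 in Balb/c sham arrays. Its C57BL/6 values were 13.01, 12.99 and 12.66 in irradiated arrays and 12.65, 12.09 and 12.15 in sham arrays. The Balb/c groups overlapped and the C57BL/6 groups lay just apart. The difference was 0.02 ± 0.19 in Balb/c (adjusted p = 0.971, 95% interval -0.39 to 0.43) and 0.59 ± 0.19 in C57BL/6 (adjusted p = 0.109, 95% interval 0.18 to 1.00).

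Ccl4, the immediate neighbour of Ccl3, had values of 10.10, 9.69 and 9.67 in Balb/c irradiated arrays and 9.89, 9.75 and 10.07 in Balb/c sham arrays. In C57BL/6 it had 10.51, 10.42 and 9.92 in irradiated arrays and 10.26, 9.78 and 9.35 in sham arrays. The groups overlapped in both strains. The difference was -0.08 ± 0.24 in Balb/c (adjusted p = 0.874) and 0.49 ± 0.24 in C57BL/6 (adjusted p = 0.259).

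Cxcl10 and Cxcl9 bind CXCR3, and for both genes all irradiated arrays lay above the sham arrays of their strain. Cxcl10 (IP-10) rose in both strains. It had values of 6.87, 8.92 and 8.04 in Balb/c irradiated arrays, against 6.00, 5.73 and 5.78 in Balb/c sham arrays. Its C57BL/6 irradiated arrays lay close together, at 8.89, 9.05 and 8.94, against 6.61, 5.76 and 5.60 in C57BL/6 sham arrays. Balb/c irradiated arrays spread more widely (SD 1.03) than the C57BL/6 irradiated arrays (SD 0.08). The rise was 2.11 ± 0.42 in Balb/c (4.31-fold, adjusted p = 0.0167) and 2.97 ± 0.42 in C57BL/6 (7.82-fold, adjusted p = 0.00503). The C57BL/6 call was kept in each fit that left out 1 array. The Balb/c call was lost without Balb/c sham replicate 2 (adjusted p = 0.0635) or Balb/c irradiated replicate 3 (adjusted p = 0.0575).

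The 3′ minus 5′ difference of the Actb and Gapdh control probe sets, a measure of RNA and amplification quality, was 3.70, 4.82 and 4.21 in the Balb/c irradiated arrays. In Balb/c sham arrays it was 3.72, 3.54 and 3.81, and in all C57BL/6 arrays it lay between 3.50 and 3.77. Within the Balb/c irradiated group, Cxcl10 has the same order as this measure, with the lowest value in the array at 3.70. With the measure as a covariate, the Balb/c difference of Cxcl10 was 1.23 (adjusted p = 0.130) and that of C57BL/6 was 2.99 (adjusted p = 9.43e-04). The same fit left Ccl5 in Balb/c at 4.39, but no longer past the threshold (adjusted p = 0.0682). Ccl8, at 3.80 (adjusted p = 0.0200), was still called there. The arrays at 4.82 and 4.21 are both Balb/c irradiated, so the covariate and that group can be told apart only in part, here and below. A call can end with the covariate although the difference is no smaller, as for Ccl5.

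**Figure D3:**
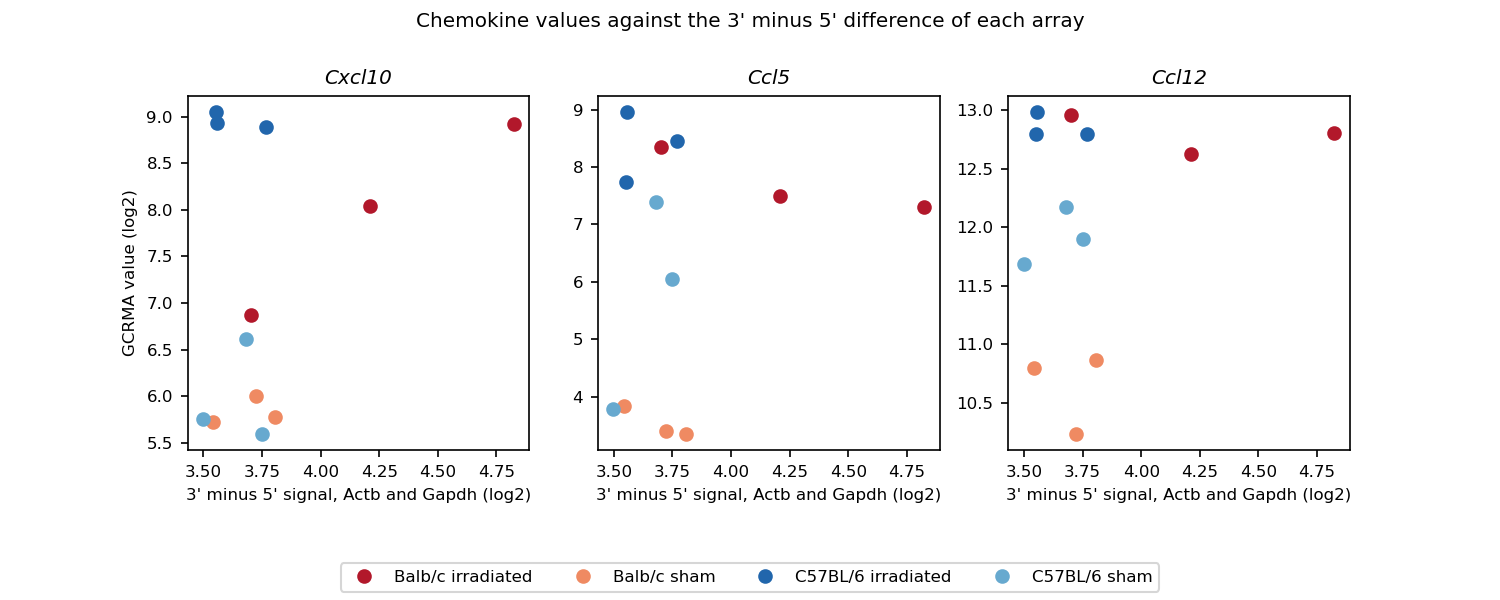
GCRMA log2 values of Cxcl10, Ccl5 and Ccl12 (y axis) against the 3′ minus 5′ log2 difference of Actb and Gapdh of each array (x axis), with points coloured by group. The Balb/c irradiated arrays at 4.82 and 4.21 lie right of all others, and the Cxcl10 value is 6.87 in the Balb/c irradiated array at 3.70.

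Cxcl9 (MIG) was dim in most arrays, and only 4 of 12 exceeded 5. Its values were 6.37, 5.16 and 3.68 in Balb/c irradiated arrays, against 2.90, 2.52 and 2.52 in Balb/c sham arrays. C57BL/6 values were 7.44, 4.69 and 6.39 in irradiated arrays, against 2.50, 3.70 and 2.52 in sham arrays. All 4 arrays above 5 were irradiated, so Cxcl9 passed the filter only through the groups in which it is high, and its test lends no support beyond the values themselves. All sham values lie near the bottom of the scale, so no fold is given and the fitted differences are no measured size. In C57BL/6 the fitted difference was 3.27 ± 0.73 and passed the test (adjusted p = 0.0384), and in Balb/c it was 2.42 ± 0.73 (adjusted p = 0.0763). The C57BL/6 call rested on single arrays: it was lost without any of the 3 C57BL/6 sham arrays (adjusted p 0.0555 to 0.0981), any of the 3 Balb/c sham arrays (0.0533 to 0.0584), or C57BL/6 irradiated replicate 1 (0.0950) or 3 (0.130). It was lost too with no filter (adjusted p = 0.133) and with values below 4 set to 4 (2.18, adjusted p = 0.0885). A second probe set for Cxcl9 stayed between 2.23 and 2.50 in all arrays and never exceeded 5. Cxcl11, which also binds CXCR3 and is no member, was too dim to be tested. It had values of 4.03 to 6.66 in Balb/c irradiated arrays against 2.23 to 2.52 in Balb/c sham arrays, and in C57BL/6 the irradiated arrays, at up to 2.49, overlapped the sham arrays at the bottom of the scale.

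Cxcl16, a membrane-bound ligand of CXCR6 that also serves as a scavenger receptor, did not pass the test in either strain. Its values were 8.996, 8.24 and 8.73 in Balb/c irradiated arrays and 8.62, 8.70 and 8.61 in Balb/c sham arrays. C57BL/6 arrays had 8.40, 8.50 and 9.30 after irradiation and 7.74, 7.78 and 8.34 after sham treatment. The C57BL/6 groups did not overlap, and in Balb/c the sham arrays lay inside the range of the irradiated ones. The difference was 0.01 ± 0.26 in Balb/c (adjusted p = 0.986) and 0.78 ± 0.26 in C57BL/6 (adjusted p = 0.127). A second probe set averaged 7.53 ± 0.48 in Balb/c irradiated and 7.62 ± 0.19 in Balb/c sham arrays. On that probe set the C57BL/6 values were 6.94, 7.56 and 8.52 in irradiated arrays and 6.88, 6.59 and 6.98 in sham arrays, which overlap.

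Counted together, 4 of the 10 members rose in Balb/c (Ccl5, Ccl8, Ccl12 and Cxcl10) and none fell. There 6.15% of all 9120 genes were called, 3.26% as higher and 2.89% as lower. Of the members counted, Ccl5 passed the filter only through irradiated arrays. In C57BL/6, 3 of 10 were called higher (Ccl12, Cxcl10 and the dim Cxcl9, which passed the filter only through irradiated arrays) and none lower, where 3.67% of all genes were called, 2.21% as higher and 1.46% as lower. The median difference of the members was 1.43 in Balb/c and 0.86 in C57BL/6, beside medians over all genes of -0.04 in both. All irradiated arrays lay above all sham arrays for 6 members in Balb/c (12.8% of all genes) and for 7 in C57BL/6 (11.4% of all genes). No member had all irradiated arrays below all sham arrays, as 16.3% of all genes did in Balb/c and 15.1% in C57BL/6. Ccl12 and Cxcl10 were called in both strains. The members were chosen with earlier results known, so these counts describe the list and are not tested.

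**Figure D4:**
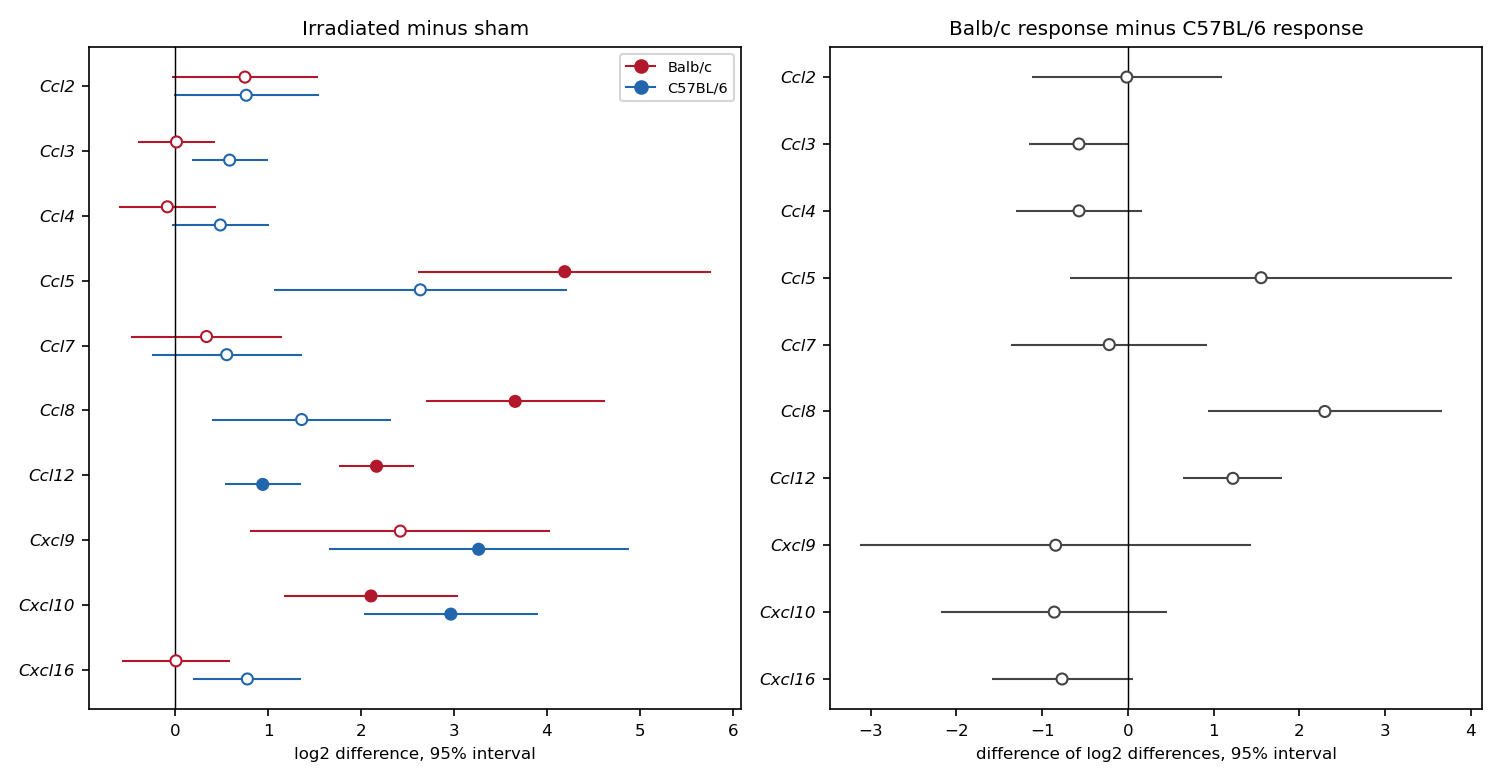
Left, log2 difference of irradiated minus sham arrays (x axis, with 95% interval) for each ligand in Balb/c (red) and C57BL/6 (blue). Right, the Balb/c difference minus the C57BL/6 difference. Filled points passed an adjusted p of 0.05, which no ligand did on the right. Ccl8 and Ccl12 lie at 2.30 and 1.22 there.

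Whether the strains responded differently was tested by the interaction, the Balb/c difference minus the C57BL/6 difference. It was called for 0 of the 10 members with limma, where 0.0768% of all genes (7 of 9120) were called, and 2 members had an unadjusted p under 0.05. These were Ccl12, at 1.22 ± 0.26 (unadjusted p = 7.02e-04, adjusted p = 0.211, 95% interval 0.65 to 1.80), and Ccl8, at 2.30 ± 0.62 (unadjusted p = 0.00351, adjusted p = 0.404, 95% interval 0.93 to 3.66). Both are positive, toward a larger difference in Balb/c. The remaining 8 lay between -0.86 for Cxcl10 and 1.55 for Ccl5, and their intervals all included 0. For Ccl2 the interaction was -0.01 ± 0.50 (adjusted p = 0.996), with an interval of -1.12 to 1.09. Ccl5, called in Balb/c and not in C57BL/6, had an interaction of 1.55 ± 1.01 (adjusted p = 0.707), and Cxcl9, called in C57BL/6 and not in Balb/c, one of -0.84 ± 1.03 (adjusted p = 0.848). Neither is shown to differ between strains. A fit with a block for replicate number, described in the part on processing, called Ccl8 in the interaction (2.30, adjusted p = 0.0108). The labels do not say that same-numbered arrays are pairs.

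The Balb/c sequence under the probe sets was not compared with that of C57BL/6, for these ligands or for any other gene whose strain difference is given. Between strains, the irradiated arrays differed for Ccl3. It averaged 11.68 ± 0.30 in Balb/c irradiated arrays and 12.89 ± 0.19 in C57BL/6 irradiated arrays, a difference of -1.21 ± 0.19 on the log2 scale (2.32-fold lower in Balb/c, adjusted p = 0.00187). That was the only call among the 10 members, where 8.97% of all genes were called, 4.38% as higher and 4.59% as lower. It held in each fit that left out 1 array. With the 3′ minus 5′ measure as a covariate it was -0.97 (adjusted p = 0.0533). Cxcl10 averaged 7.94 ± 1.03 in Balb/c irradiated arrays and 8.96 ± 0.08 in C57BL/6 irradiated arrays, a difference of -1.01 ± 0.42 (adjusted p = 0.182). Without Balb/c irradiated replicate 2 it was -1.50 and passed the test (adjusted p = 0.0319), and with the covariate it was -2.00 (adjusted p = 0.0131). Ccl8 ran the other way, at 8.33 ± 0.56 in Balb/c irradiated and 7.24 ± 0.42 in C57BL/6 irradiated arrays, a difference of 1.09 ± 0.44 (adjusted p = 0.164). Its ranges nearly touched, with the lowest Balb/c irradiated array at 7.685 and the highest C57BL/6 irradiated array at 7.683. Ccl12 differed by -0.06 ± 0.18 (adjusted p = 0.884, 95% interval -0.47 to 0.35). All Balb/c irradiated arrays lay above all C57BL/6 irradiated arrays for Ccl8 alone, and barely so (15.1% of all genes), and below them for 3 members, Ccl2, Ccl3 and Ccl7 (12.3% of all genes).

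In sham arrays the strain difference was called for Ccl12 alone, where 10.5% of all genes were called, 5.22% as higher and 5.24% as lower. Ccl12 averaged 10.63 ± 0.35 in Balb/c sham arrays and 11.92 ± 0.25 in C57BL/6 sham arrays, a difference of -1.29 ± 0.18 (2.44-fold lower in Balb/c, adjusted p = 0.00102), and this held in each fit without 1 array. Ccl3 differed by -0.64 ± 0.19 with no overlap (adjusted p = 0.0524), and passed without Balb/c irradiated replicate 1 (adjusted p = 0.0448) or 2 (0.0378). Ccl2 differed by -1.11 ± 0.35 with no overlap (adjusted p = 0.0783), and passed without C57BL/6 sham replicate 2 (-1.43, adjusted p = 0.0317) or C57BL/6 irradiated replicate 1 (adjusted p = 0.0411). Ccl5 differed by -2.21 ± 0.71 (adjusted p = 0.0811) and Ccl8 by -1.21 ± 0.44 (adjusted p = 0.120). Without C57BL/6 sham replicate 2, the lowest of its group for both, these were -3.19 (adjusted p = 0.00225) and -1.62 (adjusted p = 0.0409). Cxcl16 had a difference of 0.69 ± 0.26 (adjusted p = 0.142). All Balb/c sham arrays lay above all C57BL/6 sham arrays for Cxcl16 alone (16.3% of all genes) and below them for 3 members, Ccl2, Ccl3 and Ccl12 (12.3% of all genes). Both strain comparisons use groups that also enter the irradiation comparisons, so a low sham level and a large rise of Ccl12 in Balb/c share the same 3 arrays.

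**Figure D5:**
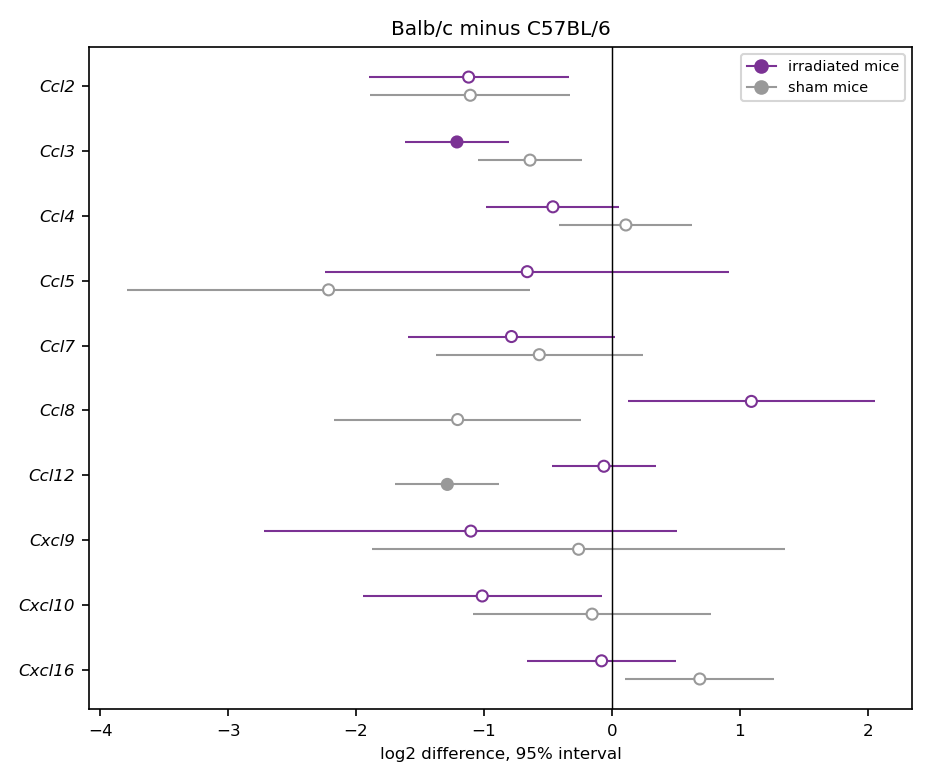
Log2 difference of Balb/c minus C57BL/6 arrays (x axis, with 95% interval) for each ligand in irradiated mice (purple) and sham mice (grey), with filled points past an adjusted p of 0.05. Ccl3 is called in irradiated mice at -1.21 and Ccl12 in sham mice at -1.29, and Ccl8 lies at 1.09 in irradiated and -1.21 in sham mice.

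Ordered by group mean, the members fell into several patterns. For Ccl3 both C57BL/6 groups lay above both Balb/c groups, irradiated above sham in C57BL/6, while the ranges of the Balb/c groups overlapped. For Ccl8, Balb/c irradiated lay on top, and C57BL/6 irradiated lay below it with a range that nearly touched. The sham groups of Ccl8 lay apart below both, with ranges that overlapped each other. For Ccl12 the irradiated groups overlapped at the top, C57BL/6 sham lay apart below them and Balb/c sham lay apart at the bottom. Cxcl10 had overlapping irradiated groups above overlapping sham groups.

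Of the other chemokine ligands, 25 were on the array and 9 were bright enough to test. None was called after irradiation in Balb/c, and in C57BL/6 Cxcl2 rose and Ccl9 fell. Of all genes, 6.15% were called in Balb/c and 3.67% in C57BL/6. Cxcl2, a neutrophil attractant, averaged 9.68 ± 0.54 in C57BL/6 irradiated and 7.76 ± 0.80 in C57BL/6 sham arrays, a rise of 1.91 ± 0.47 (adjusted p = 0.0499). That call was kept in only 2 of the 12 fits without 1 array, in which the difference ran from 1.49 to 2.28. Cxcl2 in Balb/c was 1.35 ± 0.47 (adjusted p = 0.114). Ccl9, which acts on CCR1, averaged 10.99 ± 0.03 in C57BL/6 irradiated and 11.75 ± 0.17 in C57BL/6 sham arrays, and fell by 0.77 on the log2 scale (SE 0.16, adjusted p = 0.0279), a call kept in 7 of 12 such fits. In Balb/c, Ccl9 averaged 8.82 ± 0.33 in irradiated and 8.37 ± 0.08 in sham arrays (0.45 ± 0.16, adjusted p = 0.124). The interaction of Ccl9 was 1.21 ± 0.22 (unadjusted p = 2.32e-04, adjusted p = 0.155).

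Ccl9 and Ccl6, which lie between Ccl5 and Ccl3, were also lower in Balb/c than in C57BL/6. The difference of Ccl9 was -2.17 ± 0.16 in irradiated arrays (adjusted p = 8.80e-06) and -3.38 ± 0.16 in sham arrays (adjusted p = 1.57e-07). Ccl6 differed by -0.87 ± 0.12 in irradiated (adjusted p = 0.00109) and -1.30 ± 0.12 in sham arrays (adjusted p = 5.07e-05). All 4 calls were kept in each fit that left out 1 array. With the mean of its kept probe sets Ccl9 differed by less, -1.41 in irradiated and -2.25 in sham arrays. Pf4 (CXCL4), a platelet and macrophage product, differed by -0.92 ± 0.19 in irradiated (adjusted p = 0.0119) and -0.72 ± 0.19 in sham arrays (adjusted p = 0.0368). The irradiated call of Pf4 was kept in 11 of 12 fits without 1 array and its sham call in 4 of 12. With the 3′ minus 5′ covariate both were lost (-0.94, adjusted p = 0.108, and -0.72, adjusted p = 0.0518), as they were without both Balb/c irradiated replicate 2 and C57BL/6 irradiated replicate 3 (adjusted p = 0.110 and 0.0620). Ccl24 was higher in Balb/c irradiated arrays by 1.06 ± 0.29 (adjusted p = 0.0492), a call kept in only 2 of 12 such fits and lost with the covariate (1.08, adjusted p = 0.261).

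On the receptor side, 22 genes were on the array and 7 were bright enough to test. Ccr1, the receptor of Ccl3 and Ccl5, averaged 10.60 ± 0.47 in Balb/c irradiated and 8.87 ± 0.30 in Balb/c sham arrays and rose by 1.72 ± 0.30 (adjusted p = 0.00946). In C57BL/6 it averaged 9.84 ± 0.56 in irradiated and 7.98 ± 0.23 in sham arrays and rose by 1.86 ± 0.30 (adjusted p = 0.00882). Both calls were kept in all 12 fits without 1 array. With the 3′ minus 5′ covariate the Balb/c call was lost (1.76, adjusted p = 0.0797). Ccr2, the receptor of Ccl2, Ccl7 and Ccl12 and a marker of monocytes, rose in C57BL/6, at 9.62 ± 0.33 in irradiated and 7.10 ± 0.95 in sham arrays (2.52 ± 0.42, adjusted p = 0.0101). Balb/c values of Ccr2 were 9.45 ± 0.50 in irradiated and 8.28 ± 0.30 in sham arrays (1.17 ± 0.42, adjusted p = 0.124). Fitted on the C57BL/6 arrays alone, the Ccr2 call was lost (adjusted p = 0.0741).

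Ccrl2, which binds chemerin without signalling, rose in C57BL/6 by 0.73 ± 0.17 (adjusted p = 0.0426), a call kept in only 2 of 12 fits without 1 array, and was at -0.20 ± 0.17 in Balb/c (adjusted p = 0.525). Its level was higher in Balb/c irradiated than in C57BL/6 irradiated arrays by 1.12 ± 0.17 (adjusted p = 0.00182), and by 2.05 ± 0.17 in sham arrays (adjusted p = 1.92e-05). Ccr6, whose ligand is Ccl20, averaged 11.53 ± 0.25 in Balb/c irradiated and 3.40 ± 0.16 in C57BL/6 irradiated arrays. In sham arrays it averaged 11.85 ± 0.04 in Balb/c and 3.22 ± 0.30 in C57BL/6. Irradiation moved Ccr6 past the test in neither strain. Cxcr3, the receptor of Cxcl9 and Cxcl10, stayed below 5 in every array, between 2.97 and 4.58. Ccr3, Ccr8, Cxcr6 and the scavenging receptor Ackr2 stayed at the bottom of the scale, at most 2.28.

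Of 30 tested genes that induce chemokines, restrain their induction or release them from the membrane, 1 rose and 4 fell in Balb/c. Of all genes, 3.26% were called higher and 2.89% lower there. In C57BL/6, 0 of the 30 rose and 1 fell, where 2.21% of all genes were called higher and 1.46% lower. Irf5, a factor that drives inflammatory cytokine genes, fell by 1.13 on the log2 scale in Balb/c (SE 0.16, adjusted p = 0.00354) and by 0.71 in C57BL/6 (SE 0.16, adjusted p = 0.0412), the second call kept in only 4 of 12 fits without 1 array. Tlr3, a receptor for double-stranded RNA, was the gene that rose, by 0.58 ± 0.12 in Balb/c (adjusted p = 0.0190), a call kept in 8 of 12 such fits. Irf8, a lineage factor of microglia, fell by 0.90 in Balb/c (SE 0.16, adjusted p = 0.0102). Zfp36, which destabilises cytokine mRNAs, fell by 0.70 in Balb/c (SE 0.12, adjusted p = 0.00945). Tnfaip3 (A20), an inhibitor of NF-kB signalling, fell by 0.61 in Balb/c (SE 0.12, adjusted p = 0.0181). With the 3′ minus 5′ covariate these Balb/c calls were lost while the differences kept their direction. They were then -0.88 for Irf5 (adjusted p = 0.0511), -0.71 for Irf8 (adjusted p = 0.114), -0.65 for Zfp36 (adjusted p = 0.0986), -0.54 for Tnfaip3 (adjusted p = 0.155) and 0.45 for Tlr3 (adjusted p = 0.180).

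Between strains, 3 genes of this list were called in irradiated arrays: Ifngr1, a chain of the interferon-gamma receptor (-0.84 ± 0.15, adjusted p = 0.00554), Myd88, an adaptor of Toll-like receptors (-0.52 ± 0.09, adjusted p = 0.00530), and Tlr4, the receptor of lipopolysaccharide (0.75 ± 0.15, adjusted p = 0.0102). In sham arrays 5 were called, among them Ifnar2, a chain of the type I interferon receptor (0.75 ± 0.13, adjusted p = 0.00299), and Myd88 (-0.49 ± 0.09, adjusted p = 0.00585). Tlr4 (0.65 ± 0.15, adjusted p = 0.0180), Tlr3 (-0.51 ± 0.12, adjusted p = 0.0190) and Ifngr1 (-0.59 ± 0.15, adjusted p = 0.0328) were the others. Of all genes, 8.97% were called between irradiated arrays and 10.5% between sham arrays. With the covariate the irradiated calls of Ifngr1 (-0.88, adjusted p = 0.0553) and Tlr4 (0.76, adjusted p = 0.0964) were lost. They were lost too without both Balb/c irradiated replicate 2 and C57BL/6 irradiated replicate 3 (adjusted p = 0.0662 for Ifngr1 and 0.0918 for Tlr4), as was the sham call of Ifngr1 (0.0605). Fitted on the groups compared alone, the irradiated calls of Ifngr1 (adjusted p = 0.0510) and Myd88 (0.0508) and the sham calls of Tlr4 (0.0525) and Tlr3 (0.0667) were lost. The direction of Tlr4 rests on its probe set: with the mean of its kept probe sets it was -0.82 in irradiated and -0.56 in sham arrays.

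Sorting and dissection can switch on immediate early genes, and some chemokines are known to move with them. Of 16 such genes, 3 fell in Balb/c and 1 in C57BL/6, and none rose. Of all genes, 2.89% were called lower and 3.26% higher in Balb/c, and 1.46% lower and 2.21% higher in C57BL/6. Atf3 (-1.54 ± 0.38, adjusted p = 0.0410) and Klf2 (-1.21 ± 0.27, adjusted p = 0.0252) were called in Balb/c, kept in 5 and 8 of 12 fits without 1 array. Junb was called in both strains, with -1.16 ± 0.21 in Balb/c (adjusted p = 0.0125) and -0.96 ± 0.21 in C57BL/6 (adjusted p = 0.0388), the second call kept in 4 of 12 such fits. With the 3′ minus 5′ covariate all these calls were lost, with Balb/c differences of -1.59 for Atf3 (adjusted p = 0.183), -1.40 for Klf2 (0.0972) and -1.06 for Junb (0.115), and a C57BL/6 difference of -0.96 for Junb (0.0511). The list averaged 11.12, 10.99 and 10.46 in Balb/c irradiated arrays against 11.37, 11.38 and 11.63 in Balb/c sham arrays. In C57BL/6 it averaged 11.32, 10.64 and 10.61 in irradiated arrays against 11.75, 11.26 and 11.24 in sham arrays. The irradiated arrays were thus lower than the sham arrays in Balb/c, and the C57BL/6 ranges overlapped. The part of the immediate early genes in the ligand values was not tested.

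Markers of other cells moved with irradiation as well. Beside the counts of called markers here and in the next paragraph, 3.26% of all genes were called higher and 2.89% lower in Balb/c. In C57BL/6 these shares were 2.21% and 1.46%. The 12 markers of border-associated macrophages averaged 9.37 to 9.84 in Balb/c irradiated arrays against 8.88 to 8.96 in Balb/c sham arrays, and 3 rose. In C57BL/6 they averaged 9.85 to 10.09 in irradiated arrays against 8.82 to 10.01 in sham arrays, and 0 were called. The 10 monocyte markers averaged 5.66 to 6.58 in Balb/c irradiated arrays against 5.04 to 5.47 in Balb/c sham arrays, and 6.14 to 7.02 in C57BL/6 irradiated arrays against 4.95 to 5.85 in C57BL/6 sham arrays. Of the 7 monocyte markers tested, 3 rose in Balb/c and 4 in C57BL/6, while Hp, Vcan and F10 were below 5 in every array. S100a8 and S100a9, the abundant neutrophil proteins, rose in Balb/c, at 10.24 ± 1.02 in irradiated against 6.14 ± 0.41 in sham arrays for S100a8 (4.10 ± 0.67, adjusted p = 0.00697). The 9 neutrophil markers averaged 4.78 to 6.22 in Balb/c irradiated arrays against 3.98 to 4.16 in Balb/c sham arrays. They averaged 4.57 to 6.59 in C57BL/6 irradiated arrays against 4.48 to 6.32 in C57BL/6 sham arrays, and of the 5 tested 2 rose in Balb/c and 0 in C57BL/6.

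The 8 astrocyte markers averaged 9.94 to 10.74 in Balb/c irradiated arrays against 9.18 to 9.67 in Balb/c sham arrays, and 3 rose. In C57BL/6 they averaged 9.88 to 10.24 in irradiated arrays against 9.13 to 9.67 in sham arrays, and 0 were called. Of 7 endothelial markers tested, 1 rose in Balb/c and 0 in C57BL/6, and of 4 dendritic cell markers none was called in either. T and NK cells can release Ccl5, and 12 of their 14 markers, among them Cd3d, Cd3e, Cd3g, Cd8a, Nkg7 and Ncr1, were below 5 in every array. The other 2, Gzma and Klrd1, are carried by cytotoxic lymphocytes. Gzma, a granzyme, averaged 5.38 ± 2.92 in Balb/c irradiated arrays and was below 5 in Balb/c sham arrays, a difference of 2.95 ± 1.09 (adjusted p = 0.137). In C57BL/6 Gzma averaged 8.01 ± 0.51 in irradiated and 6.04 ± 0.88 in sham arrays without overlap (1.97 ± 1.09, adjusted p = 0.319). Klrd1, an NK cell receptor chain, fell by 1.16 in Balb/c (SE 0.30, adjusted p = 0.0463). The list averaged 2.58 to 3.05 in Balb/c irradiated arrays against 2.65 to 2.71 in Balb/c sham arrays, and 3.10 to 3.21 in C57BL/6 irradiated arrays against 2.95 to 3.08 in C57BL/6 sham arrays. The 11 microglial markers had a median array mean of 13.13 in Balb/c irradiated arrays against 13.27 in Balb/c sham arrays. In C57BL/6 it was 13.18 in irradiated arrays against 13.36 in sham arrays, and 0 were called after irradiation in either strain. The part of the myeloid, lymphocyte and astrocyte markers in the ligand values was not tested.

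The genes with profiles most like each member were found by the root mean square difference of their centred log2 values over the 12 arrays. Nearest to Cxcl10 were the interferon-stimulated genes Usp18 (0.58) and Ifit1 (0.58), where Cxcl10 itself has an SD of 1.47. Nearest to Ccl5 were Ms4a4c (0.91) and Cst7 (0.95) at an SD of 2.16, and nearest to Ccl8 were Mndal (0.62) and Ccnd2 (0.64) at an SD of 1.53. For Ccl12 they were Gm4951 (0.36) and Dennd2c (0.37) at an SD of 0.96, and for Cxcl9 Rsph1 (0.88) and Dsg2 (0.89) at an SD of 1.78. Among the members that were not called after irradiation, Ccl7 lay nearest to Pf4 (0.29) and Phactr2 (0.29) at an SD of 0.61. Ccl2 lay nearest to Prxl2c (0.38) and Psat1 (0.41) at an SD of 0.82. Ccl3 lay nearest to Gngt2 (0.21) and Stard3nl (0.23), Ccl4 to Tnfaip2 (0.18) and Ccdc62 (0.21), and Cxcl16 to Utp4 (0.17) and Wdr6 (0.20), at SDs of 0.57, 0.34 and 0.45. The profiles share their arrays, and no test is attached to them.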

How the data were processed

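For 45101 probe sets on 12 arrays, log2 values were deposited by the authors, with GCRMA named in the submitters' processing notes and no version given. The values run from 2.23 to 16.2 and all arrays share their sorted values within 0.00034. No scanner files were used here. Names came from the given platform annotation, updated to current symbols. For each gene the probe set of highest mean was taken, and then 9120 genes above 5 in at least 3 arrays were kept.

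The model, in limma 3.58.1 under R 4.3.3, had a mean for each group and 8 residual degrees of freedom. After lmFit and eBayes, p-values were adjusted by Benjamini-Hochberg over all kept genes in each of 5 contrasts. The labels give separate animals. Alternative settings changed the filter (none, or 7), set a floor at 4, or used cyclic loess, means of probe sets, other probe sets, trend and robust moderation, array weights, fits of 2 groups only, a replicate block, or the 3′ minus 5′ covariate. Arrays were left out singly and 2 together. The test was tried on simulated data. Genes named are all members, called genes of 4 pathway lists by smallest p, up to 4 per contrast, the members' receptors, and the 2 genes nearest to each member. Tlr3 in Balb/c, Ifngr1 in sham arrays, Cxcl11, Gzma and Klrd1 were named after their values were seen. S100a8 and S100a9, of the neutrophil list, also fall outside these rules. The members, lists and motifs were chosen with earlier results of these data known. The same alternatives for called genes of the pathway lists were added after seeing the data.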

Additional observations from a re-analysis of the deposited data

How the results depend on the processing

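The count of members called in C57BL/6 was 3, and became 1 with no filter, 5 with array weights, 1 without both Balb/c irradiated replicate 2 and C57BL/6 irradiated replicate 3, 1 with only the groups compared and 1 to 3 without single arrays. In Balb/c it was 4, and became 2 with the 3′ minus 5′ covariate and 3 to 5 without single arrays. For sham arrays between strains it was 1, and became 2 with a filter at 7, cyclic loess, the mean of probe sets, trend and robust moderation or array weights, 3 without the 2 arrays named and 1 to 4 without single arrays. For irradiated arrays between strains it was 1, and 1 to 2 without single arrays, and the interaction stayed at 0 in those fits. These settings are not all that lowered the counts. In C57BL/6 Cxcl9 was also lost with values below 4 set to 4 and with the covariate. In Balb/c Cxcl10 was also lost with no filter and with only the groups compared.

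The labels tie same-numbered arrays to no shared animal or day, so the numbers were not taken as pairs. Of their 18 pairs, 9 had a correlation of deviations above 0.1. The median correlation was 0.10, against -0.090 over 36 pairs of other numbers (9 above 0.1). An array correlated best with its own number in 20 of 36 comparisons with another group, where 1 of the 3 arrays bears that number. Ccl8 was lowest in replicate 2 and highest in replicate 3 of all 4 groups. Whether same-numbered arrays share an effect was not tested. With the replicate block the counts were 4 in Balb/c, 4 in C57BL/6, 1 for the interaction, 2 between irradiated arrays and 3 between sham arrays. Ccl8 was the member gained in C57BL/6 (adjusted p = 0.00364) and in the interaction (2.30, adjusted p = 0.0108).

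Sign changes among members affected only differences that were not called. With the mean of probe sets Tlr4, called in both strain comparisons, turned to -0.82 between irradiated and -0.56 between sham arrays. Without single arrays the Balb/c irradiation difference ran from -0.16 to 0.22 for Cxcl16, -0.22 to 0.0017 for Ccl4 and -0.13 to 0.17 for Ccl3. The interaction ran from -0.21 to 0.35 for Ccl2 and -0.67 to 0.12 for Ccl7. Between sham arrays the ranges were -0.35 to 0.16 for Cxcl10, -0.46 to 0.14 for Cxcl9 and -0.11 to 0.34 for Ccl4. Between irradiated arrays they were -0.14 to 0.024 for Ccl12 and -0.25 to 0.20 for Cxcl16. In Balb/c, Cxcl16 was -0.041 with the mean of probe sets and -0.092 on its other probe set, and Ccl4 was 0.039 with the covariate. Cxcl10 between sham arrays was 0.030 with array weights. Cxcl16 between irradiated arrays was 0.085 with array weights, 0.30 with the covariate and 0.41 without the 2 arrays. The other Cxcl9 probe set, at the bottom of the scale, gave 0.073 for the interaction, 0.080 between irradiated and 0.0065 between sham arrays.

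Other calls that ended were Ccl12 in C57BL/6 with no filter (adjusted p = 0.0689), without the 2 arrays (0.119) and with its groups alone (0.0582). Cxcl9 in C57BL/6 ended with no filter (0.133), the covariate (0.0515), without the 2 arrays (0.154) and with its groups alone (0.104). Cxcl10 in Balb/c ended with no filter (0.0757) and its groups alone (0.0619). The cause was not tested. Only processed values were at hand, so no other background correction was run, and dim values such as those of Cxcl9 have no measured size near the bottom of the scale.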

Other observations

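Within some groups, single arrays were low or high for many ligands at once, although replicates of a group have no order. In the Balb/c sham group no array stood out so: replicates 1, 2 and 3 were lowest for 3, 4 and 3 members and highest for 3, 2 and 5. The same count was not made over all genes. C57BL/6 irradiated replicate 2 had the lowest value of its group for 6 of the 10 members (Ccl2, Ccl5, Ccl7, Ccl8, Ccl12 and Cxcl9), with a mean deviation from the group means of -0.33 on the log2 scale. C57BL/6 sham replicate 2 was likewise lowest for 6 of 10 (Ccl2, Ccl3, Ccl5, Ccl7, Ccl8 and Ccl12), with a mean deviation of -0.42. Balb/c irradiated replicate 1 was highest for 8 of 10 and lowest for Cxcl10.

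Along the first run of the chromosome 11 cluster, the irradiated minus sham difference in C57BL/6 was 0.77 for Ccl2, 0.56 for Ccl7, 0.94 for Ccl12 and 1.36 for Ccl8. Of these only Ccl12 passed the test in C57BL/6. Ccl11 and Ccl1, of the same run, were below 5 in every array. In the second run, Ccl9 averaged 10.99 in C57BL/6 irradiated arrays against 11.75 in C57BL/6 sham arrays, and Ccl5, next to it, averaged 8.38 in irradiated arrays against 5.74 in sham arrays. No difference between neighbouring genes was tested.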
